A study of Mus musculus with 4 samples.

Results

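Genes of the oxidative phosphorylation system were compared between wild-type and Mtg16-null marrow cells from which mature lineages had been depleted. The members were taken by name: genes of complex I (symbols starting with Nduf), complex II (Sdha to Sdhd), complex III (Uqcr), complex IV (Cox4 to Cox8) and the ATP synthase, complex V (Atp5). They numbered 64 of the 13840 genes that had a probe with a single symbol, each measured by its brightest probe: 31 of complex I, 4 of complex II, 6 of complex III, 11 of complex IV and 12 of complex V. By role, 59 encode subunits, 4 (Ndufaf1, Ndufaf4, Ndufaf5 and Ndufaf7) encode assembly factors of complex I that are not part of the finished enzyme, and Ndufs5-ps is a pseudogene of a complex I subunit. The label therefore holds for 59 of the members.

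Complexes I to IV sit in the inner mitochondrial membrane and pass electrons from NADH and succinate to oxygen. Complexes I, III and IV pump protons as they do so, and the ATP synthase uses the returning protons to make ATP. Most of the subunits are encoded in the nucleus, and a small number in mitochondrial DNA. In blood formation, resting stem cells draw largely on glycolysis, and their dividing and differentiating progeny, red cell precursors among them, rely more on respiration.

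Wild-type arrays came from C57BL/6 mice, and null arrays from animals with a disrupted Mtg16, a corepressor gene whose current symbol is Cbfa2t3, that had been backcrossed to C57BL/6 (N4 in the labels). All mice were females of 8 to 12 weeks, marrow of femur and tibia from 4 mice was pooled for each RNA, and cells carrying markers of mature lineages had been removed on magnetic columns. There were 2 arrays of each genotype, and each of 2 array lots held 1 wild-type and 1 null array. Nothing in the labels says whether the 2 arrays of a genotype came from separate pools, so p-values measure only the spread between these arrays, which may be technical.

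All 4 arrays shared a median of 470 signal units, since the deposited values had already been brought to a common distribution. The number of arrays, not read depth, limits the precision. The probe of Cbfa2t3 read 80854 and 100256 units in wild type and 95520 and 118572 in the null arrays (limma adjusted p = 0.702 for a difference of 0.24 on the log2 scale). Where this probe lies with respect to the disruption is not known here, so it is no check of the genotypes, which rest on the labels. Of 15 progenitor markers 11 had a probe, and their sum was 378799 to 393134 units in wild type and 467907 to 502369 in null. Of the 10 tested, 6 were higher and 3 lower in both lots (median 0.41), from Cd34 (1.48) and Cd48 (1.33) to Kit (-0.19) and Lmo2 (-0.20). Cd3e, which marks mature T cells, read 120 to 325, close to the 94.5 to 310 units of 3 Y-linked probes on these arrays of female mice. Other genes of its B and T lymphoid list were not dim: Cd79b read 15081 and 9441 units in wild type and 22150 and 18712 in null. Of the 7 tested in that list, 6 were higher in both lots and 1 had opposite signs (median 1.06). No marker was listed at 0.

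Marker lists of several cell types differed between the genotypes in the same arrays. The late neutrophil list (13 of 15 genes with a probe) summed to between 1377337 and 1492274 units in wild type and between 161636 and 172779 in the null arrays. The sum of 20 of 24 erythroid genes was 2385794 to 3280166 units in wild type and 1496687 to 1680904 in the null arrays, and that of 12 of 15 proliferation genes 1276666 to 1322679 against 1047627 to 1067775. Of the 10 proliferation genes tested, 6 were lower in both lots (60%, against 36.8% of all tested genes) and 4 had opposite signs. Early granulocyte genes (11 of 12) summed to 1887120 to 1904300 units in wild type and 3771988 to 4406379 in null. Sums were also higher in null for megakaryocyte (492349 to 492480 against 832668 to 948691) and monocyte and macrophage genes (84989 to 116845 against 251621 to 277754). The same held for B and T lymphoid genes (30210 to 35787 against 71564 to 73183). Single bright genes weigh on such sums: on wild-type array 1, Car1 of the erythroid list read 1586816 units and S100a9 of the late neutrophil list 730356. The part of these cell types in the values of the mitochondrial genes was not tested, and in pooled tissue fewer cells of a type and less RNA per cell cannot be told apart.

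Signals of the oxidative phosphorylation genes differed little between the genotypes, and most of the small differences pointed to lower signal in the null arrays. Differences are null minus wild type on the log2 scale. The test used the brighter 50% of probes, which kept 60 of the 64 genes and 8444 genes in all. Of the 60, none (0) passed limma with genotype as the only term and Benjamini-Hochberg adjustment over all genes at 0.05, and 0 reached an unadjusted p under 0.05 either. Whether members passed depended on the model. Fits that paired the arrays by lot called up to 14 of the 60 lower and 0 higher, as given below. The fit that called 14 (23.3%) also called 9.58% of all genes lower and 956 of the 8444 higher. With genotype as the only term, 10 (0.118%) of all 8444 genes passed, and 6.83% had an unadjusted p under 0.05 with the null lower. The median difference of the 60 was -0.14, with 25% of them below -0.27 and 25% above 0.003, against a median of -0.02 over all tested genes.

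The differences were also narrowly spread. Their SD across the 60 genes was 0.20, against 0.62 across all tested genes, and 58 of 60 (96.7%) lay within 0.5 of zero, against 71.3% of all tested genes. Part of this background is dim, while 54 of the 60 members read above 10000 units on every array. On the brighter 25% of probes the SD was 0.17 for 57 members and 0.50 for all 4967 genes, with 96.5% and 80.0% within 0.5. Between the extremes of Ndufaf1 (-0.57) and Cox7a1 (0.48) lay all other tested members. The standard errors of single genes ran from 0.17 to 0.47, and the 95% intervals of 45 genes lay wholly within a change of 1 on the log2 scale, or 2-fold, in either direction. For the other 15 genes the interval reached past 1, so a larger difference is not shut out by this fit. These errors and intervals ignore the pairing by lot, so differences between lots widen them. The median standard error of the members was 0.205 in this fit and 0.119 with the lot as a block.

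**Figure D1:**
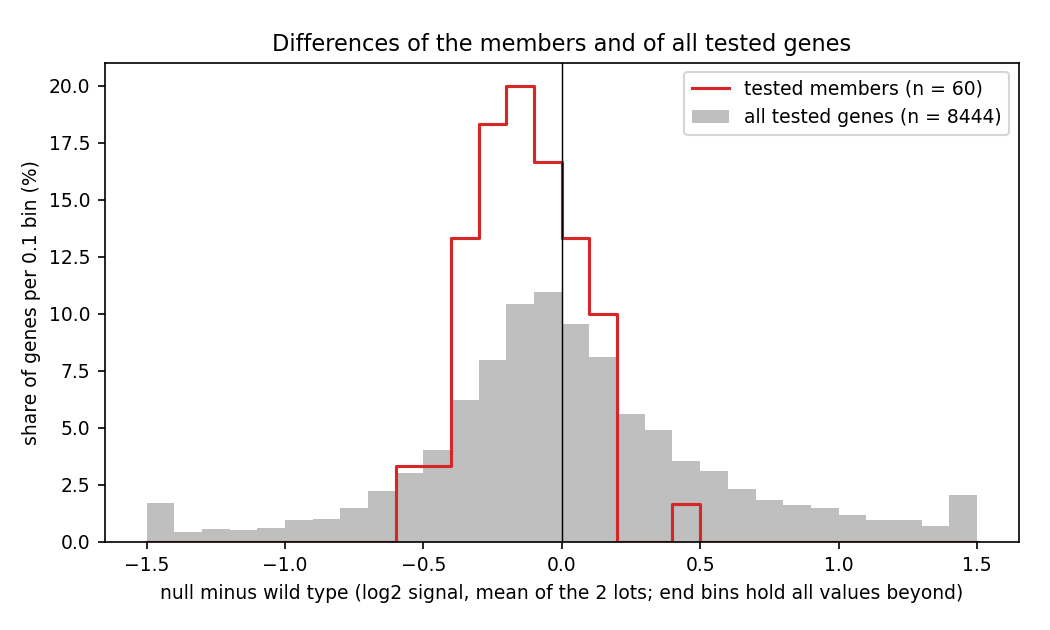
Null minus wild-type log2 difference (horizontal axis) against the share of genes per bin (vertical axis, %) for the 60 tested members (red line) and all 8444 tested genes (grey bars). The members form a narrow peak around their median of -0.14, and all but 2 lie within 0.5 of zero.

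Counted by sign, 45 of the 60 were lower on average in the null arrays and 15 higher. In both lots separately, 39 were lower (65.0%, against 36.8% of all tested genes), 7 were higher (11.7%, against 33.6%), and 14 had opposite signs. Both null arrays read below both wild-type arrays for 19 genes (31.7%, against 23.2% of all tested genes) and above both for 2 (3.33%, against 22.6%). The genes are not independent of each other, since all were read from the same 4 arrays. Within lot 1 the median was -0.16 and 47 of 60 were lower. Within lot 2 it was -0.15 and 45 of 60 were lower. With the lot as a block on the same probes 0 of the 60 passed, as did 0 (0%) of all genes (smallest limma adjusted p = 0.144 among the members). At an unadjusted p under 0.05 the block gave 5 members lower and 0 higher (Ndufaf1, Cox6b2, Ndufb9, Cox7c and Atp5g1), against 11.0% of all tested genes lower and 13.3% higher.

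The lot block gave other counts under other settings, which were chosen after seeing the data. On the brighter 25% of probes it called 6 of 57 members lower and 0 higher (10.5%, against 12.1% of all 4967 genes called lower): Ndufaf1, Cox6b2, Ndufb9, Cox7c, Atp5g1 and Ndufaf7, with limma adjusted p from 0.0139 to 0.0478. That share of lower calls is near the background, while 699 of the 4967 genes were called higher. At an unadjusted p under 0.05 the same fit had 19 members lower and 0 higher, against 20.3% of all genes lower and 978 of the 4967 higher. With a variance trend and robust prior on the brighter 50% the block called 14 of 60 lower and 0 higher (23.3%, against 9.58% of all genes called lower). Of all 8444 genes, 956 were called higher in that fit. The 14 members were the 6 genes above and Ndufs1, Ndufv1, Ndufa10, Ndufa13, Sdhd, Uqcr11, Cox5b and Atp5o, with the lowest limma adjusted p, 0.00197, for Cox6b2. Without a filter on dim probes the block called 0 of 64. A block leaves 1 residual degree of freedom, so each of these fits rests mainly on the spread shared across genes. The fit without it, with 2 residual and 2.11 prior degrees of freedom, also rests in good part on that spread and ignores the pairing. Adjusted p-values given for single genes below are from the fit without the block.

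**Figure D2:**
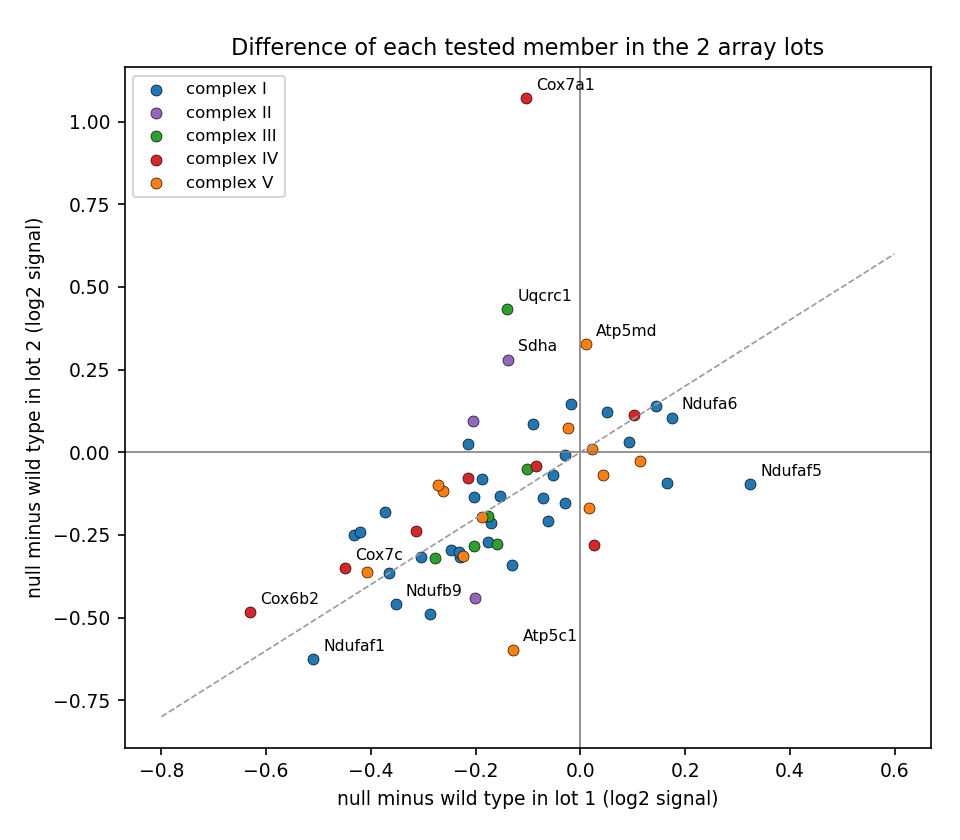
Each point is 1 tested member, with its null minus wild-type log2 difference in lot 1 (horizontal axis) and in lot 2 (vertical axis), coloured by complex; the dashed line marks equal differences. Of the 60 points, 39 lie at the lower left, lower in both lots, and Cox7a1 stands apart because its difference of 1.07 comes from lot 2 alone.

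A pair of arrays stood at the ends of the range for many of these genes. Wild-type array 1 had the highest signal for 32 of 60 and null array 2 the lowest for 31. For each gene the signal was expressed relative to its own mean. The median over the 60 genes was 0.15 on wild-type array 1, -0.01 on wild-type array 2, -0.02 on null array 1 and -0.16 on null array 2. So lot 1 read above lot 2 in both genotypes, with a median lot 2 minus lot 1 of -0.15 in wild type and -0.16 in null, a shift as large as that between genotypes. For 38 of 60 members (63.3%) the lot difference exceeded the genotype difference, against 48.1% of all tested genes. Lot differences in the wild-type and null arrays correlated across the 60 members (Pearson r = 0.79, Spearman rho = 0.80), a description over genes that share the 4 arrays. Leaving out wild-type array 1 made the median difference -0.09 with 35 of 60 lower, and leaving out null array 2 made it -0.09 with 39 lower. When wild-type array 2 was dropped it was -0.26 (46 lower), and when null array 1 was dropped -0.24 (49 lower). Dropping an array leaves its lot with 1 genotype, so here and below part of the lot shift enters such differences.

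**Figure D3:**
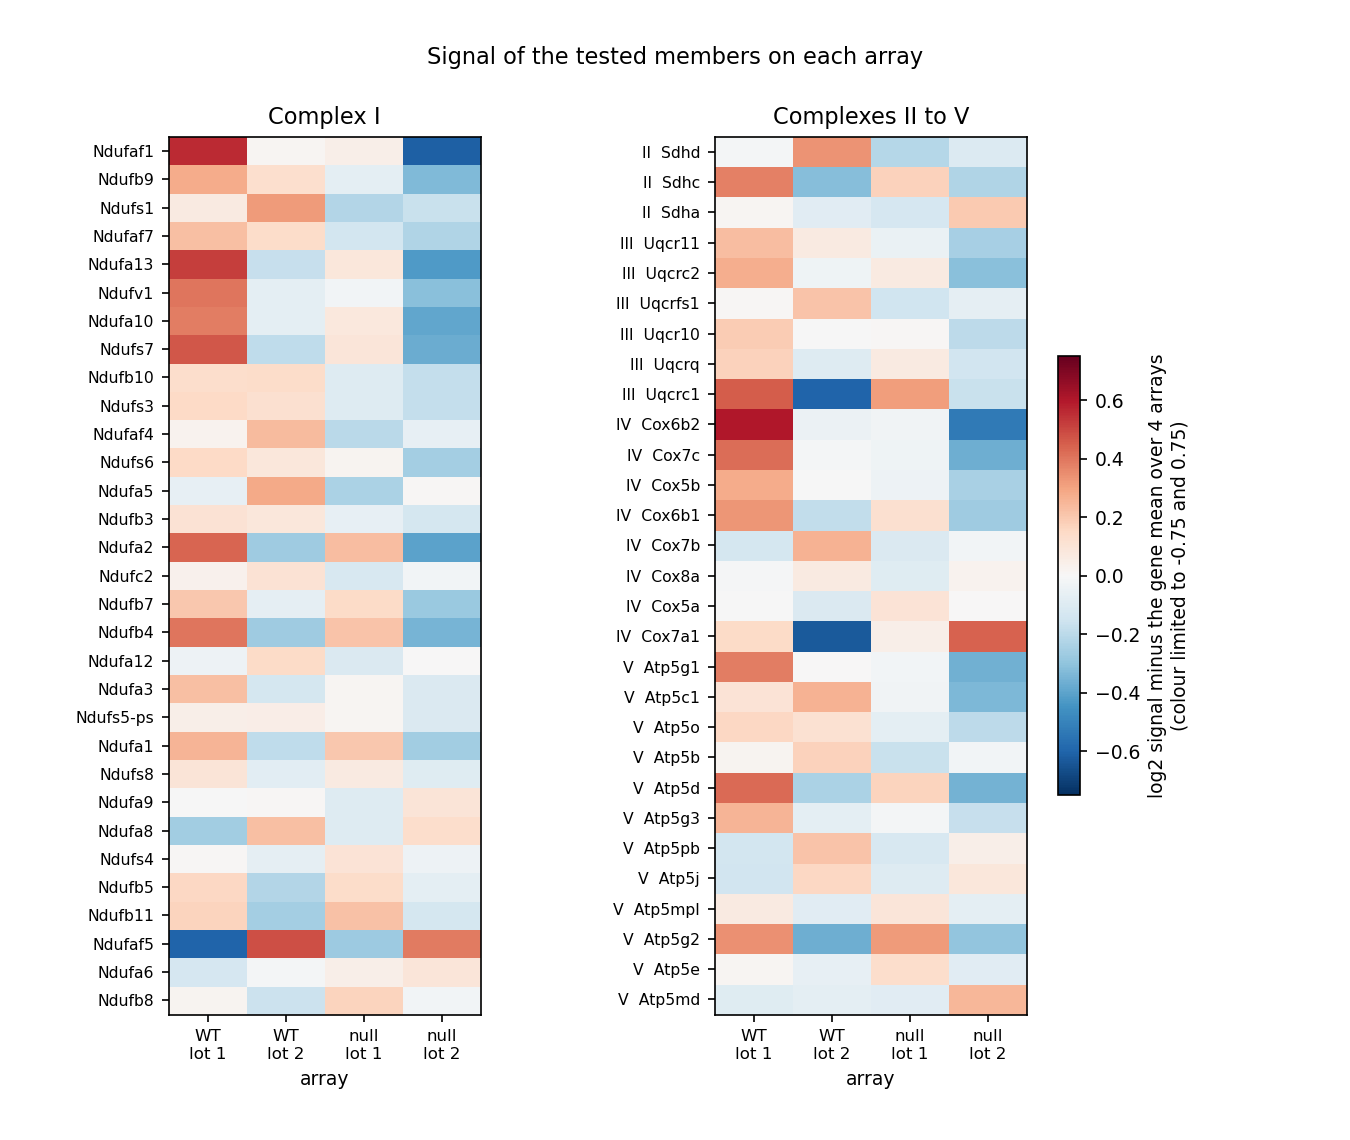
Log2 signal of the 60 tested members (rows, sorted by their difference within each complex) on the 4 arrays (columns; WT, wild type), each as the distance from the gene's mean over the arrays. Red marks signal above that mean and blue below; wild-type array 1 is the reddest column (highest for 32 genes) and null array 2 the bluest (lowest for 31).

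Complex I, the entry point for electrons from NADH, had 31 tested genes with a median difference of -0.14 (-0.17 in lot 1, -0.15 in lot 2). Of these, 22 were lower and 4 higher in both lots (71.0% and 12.9%, against 36.8% and 33.6% of all tested genes). Both null arrays lay below both wild-type arrays for 10 (32.3%, against 23.2% of all tested genes). The 5 core subunits on the array, which carry the flavin and iron-sulphur clusters or lie beside them, were lower in both lots in 5 of 5 cases, with a median of -0.28. Ndufs1, the largest core subunit, read 133517 and 159396 units in wild type and 109472 and 113618 in the null arrays. These groups did not overlap, at a difference of -0.39 (SE 0.19, limma adjusted p = 0.429). Ndufv1, which binds NADH, read 105768 and 76054 in wild type and 78964 and 64379 in null. Here the wild-type array of lot 2 fell between the null arrays, and only within lots was the null lower (-0.42 and -0.24). Ndufs3, also a core subunit of the matrix arm, read 64508 and 63082 against 54364 and 51346, with no overlap. Ndufs8, which holds iron-sulphur clusters, was nearly level at 64738 and 57182 against 63419 and 56840 (-0.02).

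Accessory subunits surround that core and support its assembly and stability. Those of the A series (10 genes) had a median of -0.10 and those of the B series, which lie in the membrane arm (8 genes), one of -0.14. Ndufb9 read 114344 and 102858 units in wild type and 89529 and 74816 in null, 24.5% lower without overlap (-0.41, 95% interval -0.94 to 0.13). Ndufa13, also known as Grim19, covered a wide range: 269926 and 167222 in wild type and 200102 and 140603 in null. Its difference of -0.34 was exceeded by the lot difference of -0.69 within wild type. Ndufa6 was the 1 complex I gene with both null arrays above both wild-type arrays, at 97200 and 105289 against 109674 and 113193 (0.14, SE 0.17). Ndufb8 had a difference of 0.14 as well, with 939 and 827 units in wild type and 1038 and 912 in null. Its probe was dim beside those of most members, and the groups overlapped.

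Assembly factors of complex I held the lowest value of all members. Ndufaf1, which helps build the membrane arm, read 12573 and 8616 units in wild type and 8825 and 5580 in null, 32.6% lower (-0.57, SE 0.34, limma adjusted p = 0.514). The groups overlapped, since wild-type array 2 read just below null array 1, while the differences within lots were -0.51 and -0.63. Ndufaf7, a methyltransferase that acts on a core subunit, read 63293 and 59553 against 49160 and 46248, without overlap and with -0.36 in each lot. Ndufaf4 read 11403 and 13204 against 9715 and 10701. Ndufaf5 differed from these, with 1950 and 4131 in wild type and 2442 and 3866 in null: its lots differed by more than its genotypes, and the sign turned between lots (0.32 and -0.10). The pseudogene Ndufs5-ps read 65436 to 72845 units on the 4 arrays, a signal that cannot be told apart from that of its parent gene.

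**Figure D4:**
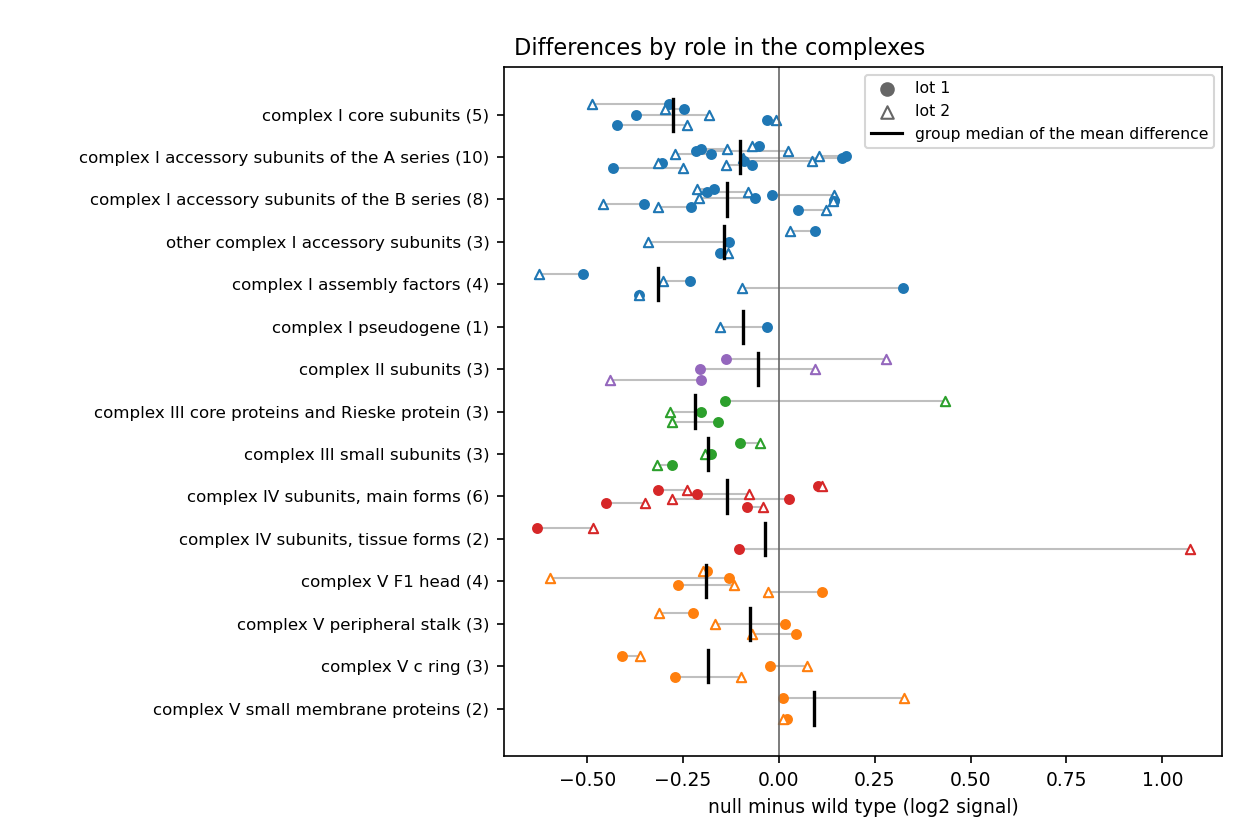
Null minus wild-type log2 difference in lot 1 (filled circles) and lot 2 (open triangles) of each tested member, joined by a grey line and grouped by role, with the number tested in brackets and the group median of the mean difference as a black bar. Group medians lie below zero except for the 2 small membrane proteins of complex V, at 0.09, a value set mostly by Atp5md in lot 2. The core subunits of complex I sit at -0.28.

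Complex II, which is also the succinate dehydrogenase of the citric acid cycle, showed no common direction. Sdha, the flavoprotein that oxidises succinate, read 51363 and 47886 units in wild type and 46673 and 58162 in null, lower in lot 1 and higher in lot 2. Sdhc, a membrane anchor, behaved alike at 65278 and 40262 against 56600 and 43016. Sdhd, the other anchor, was lower in both lots, from 171035 and 218025 to 148685 and 160633, without overlap (-0.32, SE 0.21, limma adjusted p = 0.555). The probe of Sdhb, the iron-sulphur subunit, read 199 and 211 in wild type and 382 and 183 in null, near the range of the Y-linked probes, so no difference was measured for it. The median of the 3 tested genes was -0.06 and turned to 0.12 without wild-type array 1.

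In complex III, which passes electrons from ubiquinol to cytochrome c, 5 of 6 genes were lower in both lots (83.3%, against 36.8% of all tested genes). The median of -0.20 was the lowest of the 5 complexes. Lot 1 gave -0.17 and lot 2 gave -0.23. Leaving out wild-type array 1 made the median -0.09, and leaving out null array 2 made it -0.07. Uqcrfs1, the Rieske iron-sulphur protein, read 182998 and 210904 units in wild type and 163982 and 173956 in null, without overlap (-0.22, SE 0.18). Uqcr11, a small subunit, went from 156562 and 140064 to 129141 and 112288, also without overlap (-0.30, limma adjusted p = 0.540). Uqcrc2, a core protein, read 172113 and 139539 against 149578 and 114700, with overlap between lots. Its partner Uqcrc1 went against the rest, at 89950 and 43394 in wild type and 81667 and 58591 in null. Its difference was -0.14 in lot 1 and 0.43 in lot 2. The low signal on wild-type array 2 set its mean difference of 0.15, which was -0.38 without that array, a value that part of the lot shift enters. Uqcr10 (-0.18) and Uqcrq (-0.08), 2 further small subunits, were lower in both lots with overlap. Cyc1, the cytochrome c1 subunit of this complex that the name rule did not take, had a difference of -0.27 (202454 and 173540 against 170092 and 141653).

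Of the 11 complex IV genes, 8 were tested. Complex IV reduces oxygen to water, and several of its nuclear subunits have a widespread form and a form of particular tissues. Among the 6 widespread subunits the median was -0.14. Cox7c was lowest, at 164844 and 122191 units in wild type and 120651 and 95839 in null, 24.2% lower without overlap (-0.40, SE 0.25, limma adjusted p = 0.540). Cox5b read 157113 and 129435 against 126374 and 109674, likewise without overlap (-0.28). Cox5a was higher in both lots, 165022 and 153154 against 177251 and 165612 (0.11). Cox8a read 372964 to 416612 units on the 4 arrays with a difference of -0.06, and Cox7b 367023 and 482875 against 373561 and 397813 (-0.13).

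Tissue forms of complex IV subunits were mostly near background. Cox6b2, the testis form, was the exception, at 122917 and 78474 units in wild type and 79329 and 56108 in null. It was lower in each lot (-0.63 and -0.48, mean -0.56, SE 0.33, limma adjusted p = 0.509). Null array 1 read just above wild-type array 2, so the groups overlapped. The widespread form Cox6b1 read 151855 and 105937 in wild type and 130848 and 100436 in null, a difference of -0.15. The Cox6b2 difference lay 0.42 below that of Cox6b1 in lot 1 and 0.41 below it in lot 2, a description without a test. How far each probe also reads the other form is not known here. Cox7a1, the heart and muscle form, read 893 and 522 in wild type and 830 and 1096 in null. Its difference of 0.48, the highest of all tested members, split into -0.10 for lot 1 and 1.07 for lot 2, and was 0.10 when wild-type array 2 was left out. Cox4i2, the lung form whose use rises in hypoxia, was dim on 3 arrays (93.5 and 141 in wild type, 165 on null array 1) and read 1007 on null array 2. Cox7b2 (94.1 to 315 units) and Cox8b (80.8 to 568) were dim as well, without a common direction. None of these 3 genes was in the brighter 50% of probes.

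**Figure D5:**
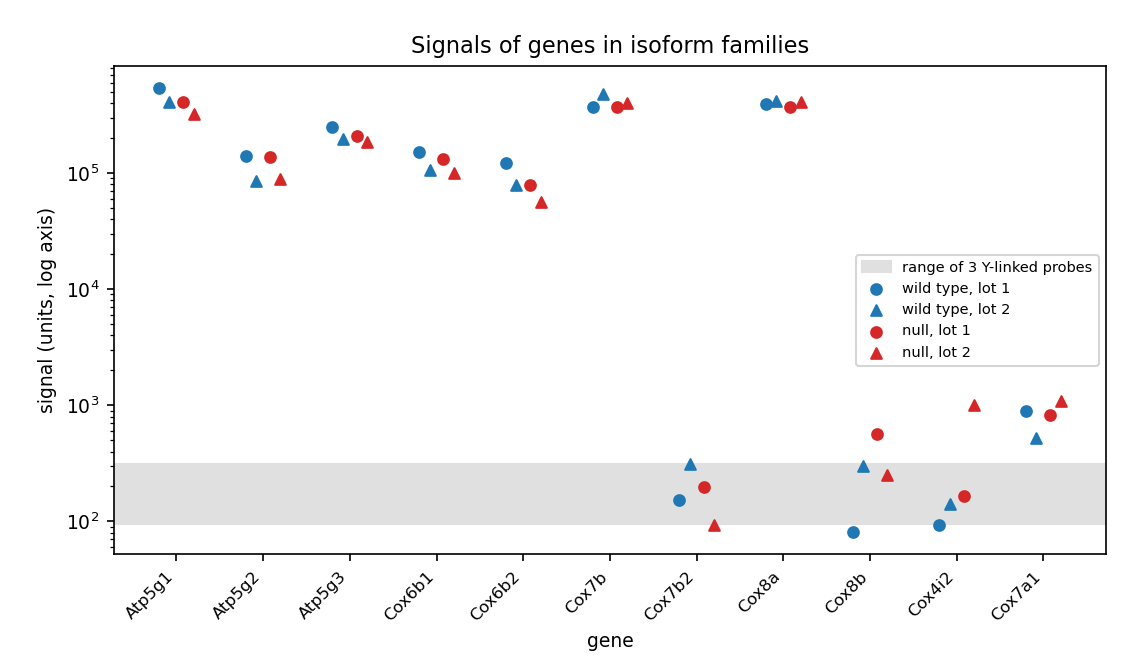
Signal (log axis) of 11 members of isoform families on each of the 4 arrays, by genotype (colour) and lot (shape), with the range of 3 Y-linked probes in grey as a guide to background. Cox6b2 sits within 56108 to 122917 units, while Cox7b2, Cox8b and Cox4i2 scatter in or near the grey band apart from single arrays.

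ATP synthase genes, 12 of 12 tested, had a median of -0.13 (-0.08 in lot 1, -0.11 in lot 2), with 6 lower and 2 higher in both lots. These were 50% and 16.7%, against 36.8% and 33.6% of all tested genes. In the catalytic head, Atp5b, the subunit that forms ATP, read 496852 and 553408 units in wild type and 436301 and 482875 in null. These did not overlap, and the lots gave -0.19 and -0.20. Atp5c1, the rotating central shaft, went from 93080 and 103468 to 85112 and 68398, again without overlap (-0.36, SE 0.20, limma adjusted p = 0.495), but most of it came from null array 2 (-0.13 in lot 1, -0.60 in lot 2). Atp5e, a small subunit of the shaft, had a difference of 0.04. Atp5o of the peripheral stalk, which holds the head still, read 112288 and 109254 against 96072 and 87913, without overlap (-0.27).

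The membrane ring that the protons turn is built of c subunits, and 3 genes, Atp5g1, Atp5g2 and Atp5g3, encode the same mature c protein behind different import sequences. Atp5g1 read 537679 and 411729 units in wild type and 405159 and 320056 in null, 23.5% lower without overlap (-0.39, SE 0.24, limma adjusted p = 0.541). Atp5g3 read 249172 and 198105 against 206463 and 185085 (-0.18). Atp5g2 was level within each lot, at 138983 and 84942 against 136723 and 89378 (0.02), while its signal in lot 2 was lower than in lot 1 in both genotypes. The Atp5g1 difference lay below that of Atp5g2 by 0.38 in lot 1 and 0.44 in lot 2, again a description without a test. Atp5md and Atp5mpl, small membrane proteins of the synthase, were above zero in both lots, though Atp5mpl was nearly level (0.02 and 0.01, SE 0.18). Atp5md read 416612 and 421610 in wild type and 419560 and 529041 in null, so that null array 2 alone set its 0.17.

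Promoters of the nuclear genes were searched for 3 motifs known from respiratory gene promoters, on both strands: GCGCNTGCG, the core of the site of the activator NRF1, CCGGAAG of the ETS family, to which the activator GABPA belongs, and the YY1 motif AAGATGGCG. RefSeq promoters (GRCm38.p6, 250 bases before to 50 after the start) were at hand for 55 of the 64 genes, matched by symbol. The NRF1 motif was in 20 of them (36.4%), against 7.12% of the 27018 genes of that table, the ETS motif in 12 (21.8%, against 9.93%) and the YY1 motif in 5 (9.09%, against 1.64%). Of the 5 genes with the YY1 motif 4 were of complex I, while 0 of 10 complex IV promoters held the NRF1 motif, and 4 pairs of matches overlapped. Base composition of the promoters was not matched. Tested genes with the NRF1 motif (20) had a median difference of -0.18 and those without it (32) of -0.14, and for the ETS motif the medians were -0.14 (11 genes) and -0.18 (41). For the YY1 motif they were -0.01 (5 genes) and -0.15 (47). No test was made of these differences. A match is a description of letters and does not show binding.

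To show what such promoters hold, the sequences of the 2 genes lowest and the 2 highest in both lots (by the smaller of their lot differences, among genes with a promoter in the table) are given below 5′ to 3′ in the direction of transcription. Capitals mark a motif match, of which Ndufaf1 has an ETS match starting 18 bases before the start site and Ndufa6 an NRF1 match after it. Cox6b2 and Ndufb8 have no match to the letters searched. Ndufb8 is the gene with the dim probe named above.
Ndufaf1, chr2:119662785-119663084, minus strand: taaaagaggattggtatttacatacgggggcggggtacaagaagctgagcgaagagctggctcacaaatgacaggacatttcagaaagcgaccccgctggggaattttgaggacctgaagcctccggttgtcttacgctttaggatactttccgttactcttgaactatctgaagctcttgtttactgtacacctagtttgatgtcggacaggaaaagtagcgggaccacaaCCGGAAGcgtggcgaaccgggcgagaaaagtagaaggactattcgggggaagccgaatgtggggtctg
Cox6b2, chr7:4753045-4753344, minus strand: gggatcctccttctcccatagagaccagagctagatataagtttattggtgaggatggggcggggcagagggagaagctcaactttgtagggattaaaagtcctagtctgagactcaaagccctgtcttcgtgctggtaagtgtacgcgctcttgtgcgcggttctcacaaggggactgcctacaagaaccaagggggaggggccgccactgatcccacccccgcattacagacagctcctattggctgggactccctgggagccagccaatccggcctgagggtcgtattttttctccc
Ndufb8, chr19:44555393-44555692, minus strand: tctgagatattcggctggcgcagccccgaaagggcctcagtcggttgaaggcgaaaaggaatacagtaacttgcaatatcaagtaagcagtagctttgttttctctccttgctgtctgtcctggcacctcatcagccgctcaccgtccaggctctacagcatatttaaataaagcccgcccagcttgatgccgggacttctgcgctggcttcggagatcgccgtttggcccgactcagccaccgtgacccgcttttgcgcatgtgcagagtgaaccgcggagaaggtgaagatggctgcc
Ndufa6, chr15:82354242-82354541, minus strand: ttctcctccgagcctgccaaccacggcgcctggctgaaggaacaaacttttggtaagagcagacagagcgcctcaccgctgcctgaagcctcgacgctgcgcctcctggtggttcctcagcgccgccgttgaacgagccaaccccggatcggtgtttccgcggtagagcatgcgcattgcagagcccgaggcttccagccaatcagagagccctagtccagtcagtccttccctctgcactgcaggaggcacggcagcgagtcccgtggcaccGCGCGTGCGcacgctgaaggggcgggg

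Genes around the respiratory chain were followed in 8 lists, and 0 of their 76 tested genes passed limma over all genes, or with the lot block on the same probes. With the block on the brighter 25% of probes, 10 of 63 were called lower and 3 higher, beside 603 and 699 of all 4967 genes. With the block, a variance trend and robust prior, 14 of 76 were lower and 5 higher, beside 809 and 956 of all 8444. Many genes outside these lists were thus called as well. Both of these fits called Cox11, Sdhaf2, Tfb1m, Sqor, Prdx3, Txnrd2, Gpx4, Lonp1 and Egln1 lower and Myc, Gpd2 and Bnip3 higher. The variance trend without the block called 1 of the 76, Egln3, higher, beside 183 of all 8444 genes. Of 19 tested assembly factors outside the name rule (median -0.13), 9 were lower and 4 higher in both lots. These were 47.4% and 21.1%, against 36.8% and 33.6% of all tested genes. The lowest were Cox11, which delivers copper to complex IV (22283 and 22954 against 16763 and 15127 units, -0.51, SE 0.17, limma adjusted p = 0.283), and Sdhaf2, which helps attach the flavin to Sdha (-0.44). Uqcc2 (0.24) and Timmdc1 (0.20) were the highest. Nuclear regulators of mitochondrial genes (median -0.12) were lower in both lots in 10 of 14 cases (71.4%, against 36.8% of all tested genes). Tfb1m, a methyltransferase of mitochondrial ribosomal RNA, read 13345 and 13316 in wild type and 8187 and 8685 in null (-0.66, SE 0.17, limma adjusted p = 0.193), and Polg, the mitochondrial DNA polymerase, had -0.53. The transcription factor gene Myc was the 1 regulator higher in both lots, at 113284 and 89324 against 147256 and 134256 (0.48, limma adjusted p = 0.378). Yy1, which encodes a regulator of many promoters, was next with 0.01 (SE 0.26). Tfam, whose protein packages mitochondrial DNA, had a difference of -0.15 (SE 0.17) and Nrf1, an activator of nuclear respiratory genes, one of -0.01 (SE 0.31).

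Citric acid cycle enzymes had a median of -0.05. In both lots 4 of 10 were lower and 2 higher (40% and 20%, against 36.8% and 33.6% of all tested genes). Cs, the citrate synthase gene, read 185085 and 169755 against 149187 and 141428 (-0.29), and Mdh2 had -0.32 with a lot difference far larger than that of genotype. Idh3g (0.16) and Suclg1 (0.21) were highest. In the pyruvate dehydrogenase list the median was 0.001 over 6 genes, from Pdk2 (-0.31) and Pdk1 (-0.25) to Pdk3 (0.11) and Pdha1 (0.20). Carriers of adenine nucleotides, phosphate and protons had opposite signs in the lots in 6 of 6 cases, from Slc25a3 (-0.13) and Vdac2 (-0.09) to Vdac1 (0.07) and Ucp1 (0.13). Over all tested genes the signs were opposite in 2480 of 8444. Among enzymes that feed the chain from outside, Sqor, which oxidises sulphide, read 9844 and 5559 in wild type and 2923 and 2470 in null (-1.46, SE 0.34, limma adjusted p = 0.168), past any member of the complexes. Gpd2, the mitochondrial glycerol phosphate dehydrogenase, was higher at 21835 and 21929 against 30110 and 30700 (0.47, limma adjusted p = 0.287). Cycs, which encodes cytochrome c itself, was level (-0.02).

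Mitochondrial antioxidant genes (median -0.38) were lower in both lots in 4 of 6 cases (66.7%, against 36.8% of all tested genes). Prdx3, the mitochondrial peroxiredoxin, read 199581 and 242658 against 137981 and 154977 (-0.59), Txnrd2, the mitochondrial thioredoxin reductase, had -0.85, Txn2 -0.09 and Gpx1 0.33. In the list of oxygen response genes, Egln3, a prolyl hydroxylase induced in hypoxia, read 1227 and 1169 in wild type and 3137 and 3134 in null (1.39, SE 0.17, limma adjusted p = 0.0909), and Vegfa had 0.64, set by lot 2. Lonp1, the mitochondrial protease that remodels a complex IV subunit in hypoxia, had -0.44 and Egln1 -0.40.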

How the data were processed

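Labelled cRNA of 4 lineage-negative marrow samples (2 wild type, 2 Mtg16-null) was read on Applied Biosystems arrays with 1 colour, per the labels' protocols. For 33012 probes the authors deposited an intensity, linear and between 28.2 and 3093946 signal units. Sorted values of the arrays differ by at most 0.286%, as after quantile normalization. Which scanner software, background correction or detection calls came before is not given in the sources used.

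Probes were named from the platform annotation: 14411 had 1 symbol, 247 several and 18354 none. A floor of 75.8 units (the percentile of rank 1) was set, signals were put on the log2 scale, probes in the upper 50% by mean were retained, and each gene was read from the probe of highest mean signal, which gave 8444 tested genes. For null minus wild type, limma 3.58.1 (R 4.3.3; lmFit and eBayes) was run (genotype as the only term, 2 residual and 2.11 prior degrees of freedom), with Benjamini-Hochberg adjustment over all tested genes at 0.05; intervals are at 95%. The method was tested on simulated data with planted differences larger than that of any tested member. That run does not show how well differences of the members' size would be found. The replicate number is the array lot per the series text, so it pairs the samples; lot deviations of the genotypes correlated over all tested genes (r = 0.50). Alternatives were the lot as a block, other filters, cyclic loess, no floor, a variance trend, averaged probes, subunits only, and each array left out. The block combined with no filter, the brighter 25% of probes, or the variance trend was added after seeing the data.

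Named genes were the 3 highest and 3 lowest tested members of each complex, the brightest of each, all isoform families, and the 2 highest and 2 lowest genes of each pathway list; other genes were chosen after their values were seen. The members and lists were chosen with earlier results of these data known. One further gene that fits the name pattern is not reported here. Figures were drawn with matplotlib 3.10.9.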

Additional observations from a re-analysis of the deposited data

How the results depend on the processing

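With the lot as a replicate block on the brighter 50% of probes, 0 of the 60 members passed and the count over all genes went from 10 to 0. Combined with other settings, chosen after seeing the data, the replicate block called 6 members and 1302 genes (brighter 25% of probes), 14 members and 1765 genes (variance trend and robust prior), or 0 members and 0 genes (no filter). That count was also 0 without the filter on dim probes, 291 with the brighter 25% of probes, 298 with a variance trend and robust prior, and 0 with each array left out; the cause was not tested. Without the block, 0 members passed under any of these settings. With an array left out, the median over all members ran from -0.26 to -0.09, that of complex I from -0.26 to -0.086, of complex II from -0.25 to 0.12, of complex III from -0.33 to -0.07, of complex IV from -0.22 to -0.12 and of complex V from -0.20 to -0.091. Settings that kept all 4 arrays gave -0.17 to -0.14 over all members. The sign of some named members turned with an array left out: Atp5e ran from -0.065 to 0.15, Atp5g2 from -0.33 to 0.38, Cox6b1 from -0.41 to 0.11, Cox7b from -0.32 to 0.071, Ndufa13 from -0.69 to 0.0044, Ndufaf5 from -0.43 to 0.66, Sdha from -0.088 to 0.23, Sdhc from -0.40 to 0.29, Uqcrc1 from -0.38 to 0.67 and Uqcrq from -0.21 to 0.057. Leaving out an array leaves 3, and the lone array of its group is assumed to vary like the other group. Lots are then unbalanced between genotypes, so lot differences enter these values. Atp5g2, for instance, differed by -0.02 and 0.07 within lots, while lot 2 minus lot 1 was -0.71 in wild type and -0.61 in null. Signals of Sdhb, Cox4i2, Cox7b2 and Cox8b lie too near background to give a difference.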
